A study of Mus musculus with 2 samples.

Results

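The unfolded protein response of the endoplasmic reticulum was followed through 10 of its genes, Hspa5, Hsp90b1, Pdia4, Sdf2l1, Dnajb9, Creld2, Herpud1, Xbp1, Atf4 and Ddit3, in single cells of the mouse hippocampus. The members were taken by symbol from the 41605 genes listed in each count matrix, and each symbol had 1 row. The study compared warm enzymatic digestion with cold mechanical dissociation of the hippocampus, followed in either case by a Percoll gradient that removes debris and myelin. The 2 libraries came from wild-type C57BL/6 mice, male per the series design and 10 weeks old, and each was a pool of 3 mice run on the 10x Genomics 3′ kit. No label says which library had which dissociation, so they are called library 1 and library 2 and neither stands for a method. With 1 pool per library there is no replicate error, and every interval given is a 95% interval that covers counting error only.

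The endoplasmic reticulum folds membrane and secreted proteins, and unfolded chains in its lumen activate the sensors IRE1, PERK and ATF6. IRE1 splices the Xbp1 mRNA to make an active transcription factor, PERK phosphorylates a translation initiation factor and so favours translation of ATF4, and ATF6 is cut in the Golgi to release its own transcription factor. Their shared targets are chaperones such as Hspa5 and Hsp90b1, degradation factors such as Herpud1 and, under lasting stress, the cell death regulator Ddit3. Microglia, the resident macrophages of the brain, make many membrane receptors and secreted proteins, which pass through this compartment. Counts of 3′ ends show neither the splicing of Xbp1 nor the translation of Atf4, so what follows are mRNA levels and not the activity of the pathway.

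The best-known promoter motif of the pathway is the endoplasmic reticulum stress element, CCAAT and CCACG separated by 9 bases, which NF-Y and ATF6 bind. It was searched on both strands from 250 bases before to 50 bases after the start site, in the RefSeq promoters of build GRCm38.p6, where all 10 members had an entry. It lay in 0.119% of the 32851 promoters and in those of 3 members, Hspa5, Hsp90b1 and Creld2, which are the windows shown here because the levels of these genes across cell classes are compared further on. The Hspa5 window is chr2:34772015-34772053 on the forward strand. The Hsp90b1 window is chr10:86705523-86705666 on the reverse strand and holds 2 matches, 1 in each orientation. The Creld2 window is chr15:88819510-88819548 on the forward strand, with the motif in the opposite orientation (CGTGG, 9 bases, ATTGG). A second form, ATTGG and CCACG separated by 1 base, lay in 0.0365% of promoters and, among members, in that of Herpud1, at chr8:94386367-94386397 on the forward strand. Sequences are written 5′ to 3′ on the gene's strand, and capitals mark the parts of each motif.
Hspa5: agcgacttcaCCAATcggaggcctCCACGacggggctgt
Hsp90b1: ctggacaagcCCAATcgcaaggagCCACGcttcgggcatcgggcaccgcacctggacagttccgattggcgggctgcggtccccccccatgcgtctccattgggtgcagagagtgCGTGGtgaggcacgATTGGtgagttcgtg
Creld2: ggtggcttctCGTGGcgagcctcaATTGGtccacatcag
Herpud1: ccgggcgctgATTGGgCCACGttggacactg

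The part CCACG alone was in 32.8% of promoters and in those of 8 members, all but Xbp1 and Ddit3. TGACGTG, the core of the element that spliced XBP1 binds, was in 2.01% of promoters and, among members, in that of Hspa5. TGATG and AA separated by 1 base, the core of the amino acid response element that ATF4 binds, was in 3.97% of promoters and, among members, in that of Herpud1. A match is a string of letters and not a measured binding site, and exact letters were required.

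Library 1 held 18783691 UMIs (unique molecular identifiers, each marking 1 captured RNA molecule) in 12306 barcodes, and library 2 held 29356086 in 6448. After limits on UMIs, genes and mitochondrial share, 7209 and 2164 cells remained, with medians of 1746 and 6440.5 UMIs. Of these, 3 barcodes occurred in both libraries. The files hold no cell type annotation, so classes were gated with marker genes and are called microglia-like, neuron-like and so on. Library 1 gave 719 microglia-like, 5601 neuron-like, 85 oligodendrocyte-like and 208 astrocyte-like cells, and library 2 gave 1555 microglia-like, 178 endothelial-like and 58 mural-like cells, which makes 7 combinations of class and library with at least 50 cells. In all 7, the genes with the highest fold over the mean of the other such classes of the library included markers of the class. The gate itself selected cells on these markers, so this is no check of the gate. Counted on both sides of the limit on marker share, 168 cells with mostly astrocyte markers lay within 0.1 of it, beside 208 cells in the class, and 63 cells with mostly mural markers did, beside 58 in the class. The leading genes of neuron-like cells included noncoding RNAs that stay in the nucleus, with Meg3 at 36196 CPM. Meg3 and Snhg11 are also markers of the gate, so cells rich in them were selected. Neuron-like cells had a median mitochondrial share of 0.914% against 2.45% in the microglia-like cells of the same library.

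Levels are given as CPM, the UMIs of a gene in a class divided by all UMIs of the class and scaled to 1000000. Since 1 UMI marks 1 transcript end, levels of different genes need no division by length. Summed over the 10 genes, microglia-like cells stood highest in both libraries among the classes with at least 50 cells, to which the orders given here are limited. Smaller classes, of which 2 had a higher sum in library 2, are described at the end. In library 1 the summed level was 2360.2 CPM (2287 to 2435) in microglia-like cells, 1189 (1054 to 1337) in oligodendrocyte-like cells, where 1 cell held 54 of 280 UMIs, 751 (653 to 860) in astrocyte-like cells and 717 (701 to 733) in neuron-like cells. The last pair did not differ beyond counting error, with a ratio of 1.05 (0.909 to 1.20). Library 2 gave 2507 CPM (2477 to 2538) for microglia-like cells, and lower levels of 1723 (1567 to 1890.2) in mural-like cells and 1459 (1414 to 1504) in endothelial-like cells. Hspa5 and Hsp90b1 together made up between 44.1% of the summed UMIs, in endothelial-like cells, and 63.8%, in mural-like cells. The regulators Xbp1, Atf4 and Ddit3 made up between 13.3%, in microglia-like cells of library 2, and 28.5%, in endothelial-like cells.

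**Figure D1:**
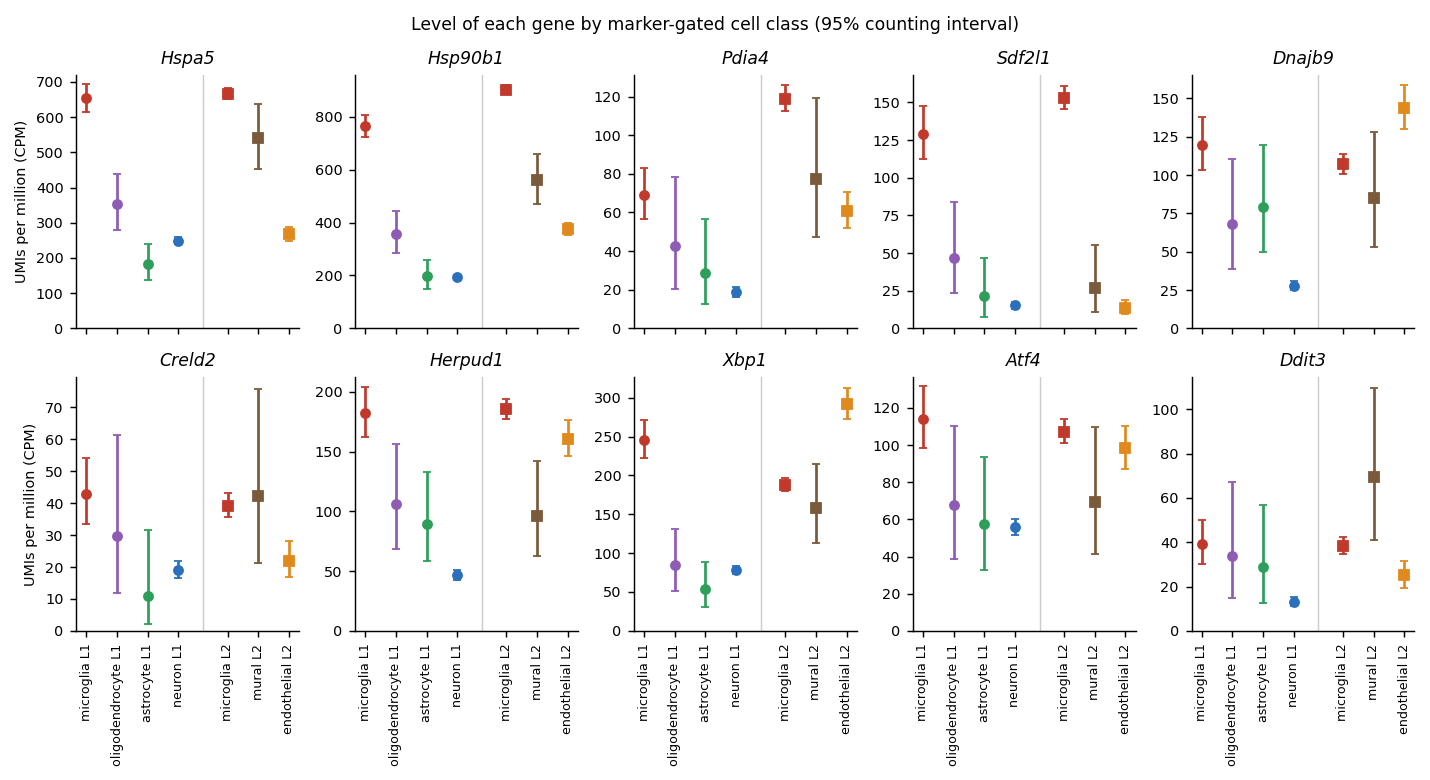
Level of each of the 10 genes in CPM (linear axes from 0) in the 7 combinations of class and library with at least 50 cells, with 95% counting intervals. Circles and the suffix L1 stand for library 1, squares and L2 for library 2. Microglia-like cells are highest for all 10 genes in library 1 and for 6 of 10 in library 2, where endothelial-like cells are highest for Dnajb9 and Xbp1 and mural-like cells for Creld2 and Ddit3.

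Hspa5 (ENSMUSG00000026864, GRCm38 chromosome 2, 34771970 to 34777547) encodes BiP, the main Hsp70 chaperone of the lumen and the protein that keeps the stress sensors inactive. In library 1 it measured 653 CPM in microglia-like, 353 in oligodendrocyte-like, 249 in neuron-like and 183 in astrocyte-like cells, and in library 2 it measured 667 in microglia-like, 539.6 in mural-like and 268 in endothelial-like cells. Each neighbouring pair in these orders differed beyond counting error. The mural-like cells were 2.01-fold (1.67 to 2.41) above the endothelial-like cells and only 1.24-fold (1.05 to 1.47) below the microglia-like cells.

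Hsp90b1 (ENSMUSG00000020048, chromosome 10, 86690209 to 86705509) encodes GRP94, the Hsp90 chaperone of the lumen, which folds integrins and Toll-like receptors. It was the most abundant member in microglia-like cells of both libraries, at 764 CPM (723 to 807) and 902 (884 to 920.4). It measured 357 in oligodendrocyte-like, 198 in astrocyte-like and 193 in neuron-like cells of library 1, and 559 in mural-like and 374 in endothelial-like cells of library 2. Of the 7 combinations, neuron-like cells were the one in which Hspa5 exceeded Hsp90b1 (249 against 193 CPM). Astrocyte-like and neuron-like cells did not differ in Hsp90b1 beyond counting error. A pseudogene on the opposite strand of Hsp90b1, 1810014B01Rik, had 87 UMIs in microglia-like cells of library 2. Whether strand was used in the counting is not stated in the sources used here.

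Sdf2l1 (ENSMUSG00000022769, chromosome 16, 17130138 to 17132383) encodes a lumen protein that works with Hspa5 and its J-domain partners, and had the largest ratio of microglia-like to neuron-like and to endothelial-like cells among the members. It measured 129 CPM (113 to 148) in microglia-like, 46.7 in oligodendrocyte-like, 21.6 in astrocyte-like and 15.3 in neuron-like cells of library 1. In library 2 it measured 153 (146 to 161) in microglia-like, 26.98 (10.8 to 55.6) in mural-like and 13.6 (9.64 to 18.7) in endothelial-like cells. The microglia-like cells lay 8.47-fold (6.89 to 10.4) above neuron-like and 11.2-fold (8.16 to 15.96) above endothelial-like cells. The levels of the other 3 classes of library 1 did not differ in turn beyond counting error, nor did those of mural-like and endothelial-like cells. After each cell was thinned to 1000 UMIs, 13.1% of microglia-like and 2.25% of endothelial-like cells of library 2 had at least 1 UMI of Sdf2l1; without thinning, at median depths of 6489 and 7694.5 UMIs, these shares were 54.2% and 16.9%. No class is known to lack these genes, so a background from free RNA could not be read from them.

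The other folding members were less uniform. Pdia4 (ENSMUSG00000025823, chromosome 6, 47796141 to 47813430), a protein disulfide isomerase, measured 68.9 CPM in microglia-like and 18.6 in neuron-like cells of library 1, and 119, 77.1 and 60.6 in microglia-like, mural-like and endothelial-like cells of library 2. Oligodendrocyte-like (42.5) and astrocyte-like cells (28.7) lay between the first pair, and no single step from 1 class to the next in either library differed beyond counting error, whereas microglia-like cells lay 3.70-fold (2.92 to 4.67) above neuron-like cells. Creld2 (ENSMUSG00000023272, chromosome 15, 88819646 to 88826683), a lumen protein that can be secreted, was the lowest of the folding members in microglia-like cells, at 42.9 and 39.3 CPM. Its level in mural-like cells, 42.4 CPM (21.2 to 75.9), could not be separated from that of microglia-like cells.

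Dnajb9 (ENSMUSG00000014905, chromosome 12, 44205559 to 44210326) encodes ERdj4, a J-domain partner of Hspa5 that dampens IRE1. It had another order than the large chaperones. Among the classes with at least 50 cells it was highest in endothelial-like cells, at 144 CPM (130 to 159), against 107 (101 to 114) in microglia-like and 84.8 in mural-like cells of library 2. In the 142 endothelial-like cells that remain without the 36 deepest, it was 111 CPM (91.2 to 134). In library 1 it measured 119.7 CPM in microglia-like, 79.0 in astrocyte-like, 68.0 in oligodendrocyte-like and 27.8 in neuron-like cells, and the microglia-like and astrocyte-like levels did not differ beyond counting error, with a ratio of 1.51 (0.973 to 2.47).

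Herpud1 (ENSMUSG00000031770, chromosome 8, 94386438 to 94395377) encodes a membrane protein that organizes the ubiquitin ligase complex of endoplasmic reticulum-associated degradation. Its levels in microglia-like cells were close in the 2 libraries, 183 CPM (163 to 204) and 186 (178 to 194). Of the other classes, endothelial-like cells of library 2 measured 161 (146 to 177) and mural-like cells 96.4, while in library 1 it was at 106 in oligodendrocyte-like, 89.8 in astrocyte-like and 46.5 in neuron-like cells. The distance between microglia-like and endothelial-like cells was small, 1.15-fold (1.04 to 1.28), compared with 2.48-fold for Hspa5 (2.30 to 2.68).

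Among the regulators, Xbp1 (ENSMUSG00000020484, chromosome 11, 5520659 to 5525893) was the most abundant. Its order of classes was that of Hspa5 in library 1 but not in library 2. Among the classes with at least 50 cells, endothelial-like cells had the highest level, 292 CPM (272 to 312), above microglia-like cells at 188 (180 to 197) and mural-like cells at 158 in library 2. Without the 36 deepest cells of the class, the endothelial-like level was 204 CPM (177 to 234). In library 1 it measured 246 (223 to 271) in microglia-like cells. It was at 85.0 CPM in the oligodendrocyte-like, 77.9 in the neuron-like and 53.9 in the astrocyte-like class, which did not differ in turn beyond counting error.

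Atf4 (ENSMUSG00000042406, chromosome 15, 80255184 to 80257541), the factor translated when PERK or another kinase of the integrated stress response is active, varied least between classes. It lay between 55.8 CPM in neuron-like and 114 in microglia-like cells of library 1, and between 69.4 in mural-like and 107 in microglia-like cells of library 2. Microglia-like and endothelial-like cells did not differ beyond counting error, with a ratio of 1.09 (0.957 to 1.25).

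Ddit3 (ENSMUSG00000025408, chromosome 10, 127290774 to 127296288) encodes CHOP, a factor of prolonged stress, and was the lowest member in microglia-like cells of both libraries. It measured 39.3 CPM (30.3 to 50.1) and 38.4 (34.7 to 42.3) there, 13.1 in neuron-like and 25.1 in endothelial-like cells. Among the classes with at least 50 cells the highest level was that of mural-like cells, 69.4 CPM (41.1 to 110) from 18 UMIs, which lay 1.81-fold (1.06 to 2.89) above microglia-like cells. Mars overlaps Ddit3 on the opposite strand and had 273 UMIs in microglia-like cells of library 2 beside 401 of Ddit3, so part of a Ddit3 count could belong to Mars if strand was not used.

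The classes of 1 library were then compared gene by gene. A gene counted as tested where its mean over both classes reached 20 CPM, and as 2-fold higher where the ratio of CPM with 1 added reached 2. All 10 members passed the filter in each comparison, but some did so only through their level in microglia-like cells. Under 20 CPM in the other class were Ddit3 (13.1), Sdf2l1 (15.3), Pdia4 (18.6) and Creld2 (19.0) in neuron-like cells. So were Creld2 in astrocyte-like (10.8) and Sdf2l1 in endothelial-like cells (13.6). The same filter was used for all genes. Against neuron-like cells all 10 were at least 2-fold higher in microglia-like cells, where 27.6% of the 8363 tested genes were, and none was 2-fold lower, where 34.4% were. The ratios ran from 2.05 (1.73 to 2.41) for Atf4 to that of Sdf2l1, and the median over members was 1.74 on the log2 scale beside -0.24 over all tested genes. Neuron-like cells carried the nuclear RNAs and the low mitochondrial share given earlier, and immediate early genes, a mark of handling, summed to 833 CPM there against 2991 in microglia-like cells. That sum does not hold gene by gene. Of the 27 genes 14 were higher in microglia-like cells and 13 lower, and Rhob alone gave 1019 CPM of the microglia-like sum. The part of nuclear RNAs, mitochondrial share and immediate early genes in the ratios was not tested.

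Against astrocyte-like cells 7 of 10 members were at least 2-fold higher (29.4% of all genes) and none 2-fold lower (23.7%). The remaining 3 were Atf4 at 1.99 (1.19 to 3.55), Dnajb9 and Ddit3, and the last of these at 1.37 had an interval from 0.654 to 3.30. Against oligodendrocyte-like cells 3 of 10, Hsp90b1, Sdf2l1 and Xbp1, were at least 2-fold higher (22.8%) and none lower (21.9%), which is near the share of all genes. All 10 lay above 1, with whole intervals above 1 for 7, but the share of all genes that did so was not counted. The median was 0.79 on the log2 scale beside -0.03 over all tested genes.

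In library 2, 3 of 10 members, Hspa5, Hsp90b1 and Sdf2l1, were at least 2-fold higher in microglia-like than in endothelial-like cells (18.5% of all genes) and none was 2-fold lower (19.7%). The whole interval lay above 1 for 7 members and below 1 for Dnajb9, at 0.744 (0.663 to 0.836), and Xbp1, at 0.645 (0.594 to 0.7004). For whole intervals, too, the share of all genes was not counted. Immediate early genes summed to 19934 CPM in the microglia-like, 20088 in the endothelial-like and 2174 in the mural-like cells of this library. The close sums of microglia-like and endothelial-like cells hold unlike genes. Of 22 tested, 9 were at least 2-fold lower in microglia-like cells (19.7% of all genes), such as Klf2 (301 against 3128 CPM). Another 3 were at least 2-fold higher (18.5%), such as Rhob (2019 against 548). Against mural-like cells only Sdf2l1 was at least 2-fold higher (18.9%), at 5.68 (2.75 to 14.1), and none was 2-fold lower (25.5%). The medians were 0.71 and 0.48 on the log2 scale, beside -0.09 and -0.27 over all tested genes.

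**Figure D2:**
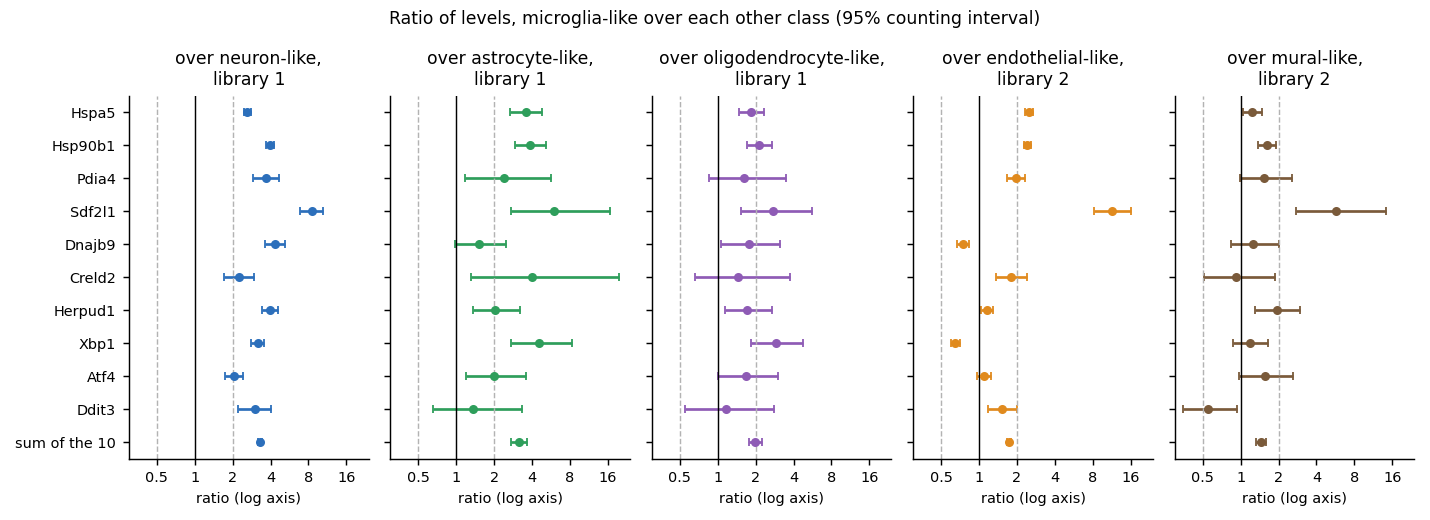
Ratio of the level in microglia-like cells to that in each other class of the same library, on a log axis, for each gene and for the sum, with 95% counting intervals. The solid line marks 1 and the dashed lines mark 2-fold in either direction. Against neuron-like cells all 10 genes lie to the right of 2, and against endothelial-like cells Dnajb9 and Xbp1 lie to the left of 1.

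Other genes of the pathway were read from 5 lists. A list median was taken over all genes of the list, also those under the filter. In the same comparison with neuron-like cells, where 27.6% of all tested genes were 2-fold higher and 34.4% lower, 6 of the 15 tested folding factors of the lumen were at least 2-fold higher in microglia-like cells and 2 lower, with a list median of 0.96 on the log2 scale. Among them the glycoprotein isomerase Pdia3 measured 434 CPM against 87.5, and the lectin chaperone Calr 774 against 395. Of the tested degradation factors 7 of 12 were at least 2-fold higher and none lower, with a median of 1.27, among them the membrane selenoproteins Selenos (305 against 109 CPM) and Selenok (326 against 118). Of the translocon and glycosylation genes 9 of 12 were higher and none lower, with a median of 1.30, among them the signal peptidase subunit Spcs2 (371 against 82.2 CPM). Of the sensors and their direct regulators 2 of 7 tested were higher and 1 lower, and these shares are near those of all genes. The median over all 10 genes of that list was 0.09, with 5 higher and 5 lower. A median of its tested genes alone was not taken. Atf6b, a relative of the ATF6 sensor, measured 55.6 CPM in microglia-like and 88.6 in neuron-like cells. The mRNAs of the sensors IRE1 and PERK, Ern1 and Eif2ak3, did not reach the filter. As with the members, some listed genes passed the filter only through microglia-like cells, such as Edem1 (9.64 CPM in neuron-like cells) and Sec61b (11.1). Wfs1 (15.7 CPM in microglia-like cells) and Hyou1 (19.3) passed only through neuron-like cells.

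Targets of ATF4 outside the 10 members did not follow a single class. Of 14 genes, 5 passed the filter against neuron-like cells, 4 were at least 2-fold higher in microglia-like cells (27.6% of all tested genes) and 1 lower (34.4%). Against astrocyte-like cells 1 of 8 tested was at least 2-fold higher (29.4%) and 4 lower (23.7%). Against oligodendrocyte-like cells 2 of 6 were higher (22.8%), which is near the share of all genes, and 4 lower (21.9%). Few genes were tested in each case, and some passed the filter through 1 class alone. In the comparison with neuron-like cells, Nupr1 (1.36 CPM there), Phgdh (8.45) and Ddit4 (13.3) passed only through microglia-like cells. Vldlr (17.5 CPM in microglia-like cells) passed only through neuron-like cells. The list summed to 1319 CPM (1187 to 1461) in astrocyte-like and 757 (716 to 800.02) in microglia-like cells, but 690 of the former came from Slc7a11, the cystine transporter, which measured 10.9 CPM in microglia-like cells and is named here after its values were seen. Phgdh, an enzyme of serine synthesis, measured 459 CPM in oligodendrocyte-like, 190.4 in astrocyte-like, 133 in microglia-like and 8.45 in neuron-like cells. In library 2 the amino acid transporter subunit Slc3a2 measured 622 CPM in endothelial-like cells against 322 in microglia-like cells. Against endothelial-like cells, 6 of 12 degradation factors, 3 of 14 folding factors and 1 of 13 translocon genes were at least 2-fold higher in microglia-like cells, as were 18.5% of all tested genes. Of the folding factors 2, Dnajc10 and Ero1l, were at least 2-fold lower, and none of the other 2 lists was (19.7% of all tested genes). The folding count is near the share of all genes. Selenos was at 244 CPM against 53.4.

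Within the neurons of library 1, the subtypes were gated by a second set of markers. The summed level was 862 CPM in 195 interneuron-like cells, 832 in 465 dentate granule-like cells, 648 in 317 CA1-like cells and 618 in 253 CA3-like cells. Interneuron-like and granule-like cells did not differ beyond counting error (ratio of granule-like to interneuron-like 0.966, 0.844 to 1.11), nor did CA1-like and CA3-like cells (1.05, 0.920 to 1.20). CA3-like cells were at 0.742 (0.657 to 0.838) of granule-like cells. The median depth was 2943 UMIs in CA3-like and 1491 in granule-like cells, and over all neuron-like cells the summed level went down with depth, from 867 CPM in the shallowest to 621 in the deepest of 4 equal bins of cells, and Hspa5 from 335 to 196. In cells with 1500 to 2500 UMIs, a band chosen after the values were seen, the order of CA3-like and granule-like cells was gone (781 CPM, 640.1 to 944, against 776, 689 to 871). In that band interneuron-like cells measured 1010 CPM (865 to 1173) and CA1-like cells 632 (554 to 717).

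The high Xbp1 and Dnajb9 of endothelial-like cells rested on few deep cells. Of the 178 cells, 36 had over 20000 UMIs, with a median of 45170.5, and they held 64.1% of the UMIs of the class. Xbp1 measured 341 CPM (314 to 369) in these 36 cells and 204 (177 to 234) in the other 142, and Dnajb9 measured 163 (144 to 182) and 111 (91.2 to 134). Hspa5 did not differ between them, at 270.5 (247 to 296) and 265 (234 to 299) CPM, nor did Herpud1, at 154 (137 to 174) and 173 (148 to 201). Against the 142 shallower cells, a split chosen after the values were seen, the ratio of microglia-like to endothelial-like cells was 0.923 (0.798 to 1.07) for Xbp1 and 0.966 (0.794 to 1.19) for Dnajb9, and neither differed beyond counting error. For Sdf2l1 it was still 9.02 (5.62 to 15.5), and for Hspa5 2.52 (2.23 to 2.86). Endothelial markers made up a median of 94.9% of all class-marker UMIs in the deep cells and 94.6% in the others, and immediate early genes summed to 23321 CPM (23098 to 23546) and 14309 (14075 to 14545). Removal of the barcodes with the highest doublet scores left 175 of the 178 cells.

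**Figure D3:**
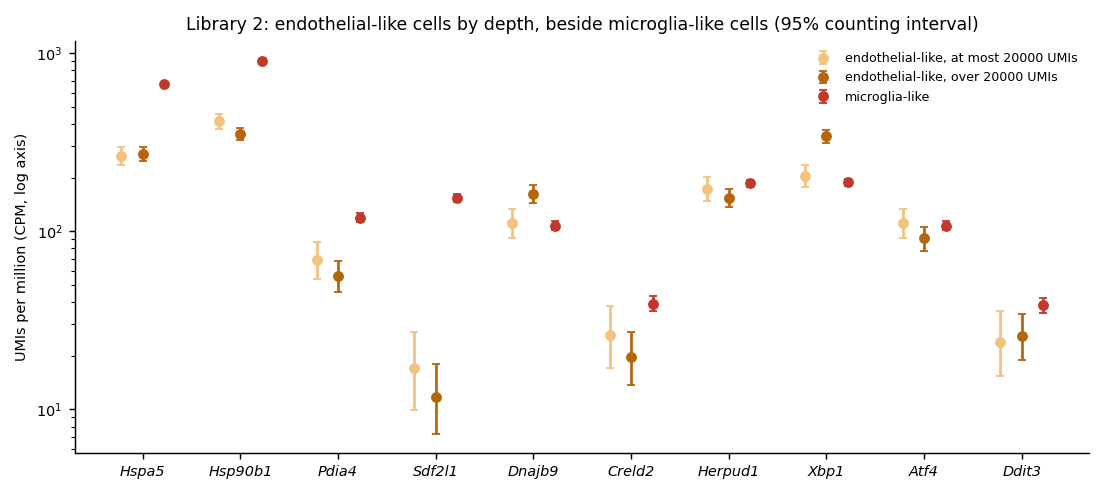
Level of each gene (CPM, log axis) in library 2, in the 142 endothelial-like cells with at most 20000 UMIs, the 36 with more, and the 1555 microglia-like cells, with 95% counting intervals. Xbp1 and Dnajb9 are higher in the deep endothelial-like cells than in the other groups, and Hspa5 and Sdf2l1 are low in both endothelial groups.

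Immediate early genes such as Jun, Junb and Fos are the usual mark of cells that responded to handling, so the members were set beside them. Microglia-like cells of library 2 were ordered by the summed level of 27 immediate early genes and cut into 4 equal bins, which are ranges of a score and not cell types. The immediate early level over these bins was 1976, 3892, 15116 and 48464 CPM. The sum of the 10 members was 2511 CPM (2446 to 2578), 2549 (2485 to 2614), 2468 (2408 to 2528) and 2505.5 (2451 to 2561), and all 4 intervals overlapped.

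Single members moved in opposite directions beneath that even sum. Hspa5 measured 590.2 CPM (559 to 623), 602 (571 to 634), 643 (612 to 674) and 789 (759 to 821) from the lowest to the highest bin. Hsp90b1 measured 978 (938 to 1020.3), 974 (935 to 1015), 892 (856 to 929) and 803 (772 to 835). Xbp1 measured 198 (180 to 218) in the lowest and 162 (148 to 176) in the highest bin, and Atf4 101 (88.3 to 115) and 126 (114 to 139). Ddit3 had overlapping intervals throughout, with 33.8 CPM in the lowest and 36.1 in the highest bin. The highest bin was also the deepest, with a median of 7875.5 UMIs against 6099 in the lowest, and over bins of total UMIs Hspa5 measured 608 CPM in the shallowest and 709 in the deepest, and Hsp90b1 923 and 883. The part of depth was not tested.

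In library 1, where the immediate early level ran from 1108 to 5979 CPM over the bins, the sum of the 10 members measured 2314, 2332, 2433 and 2362 CPM with overlapping intervals. Hspa5 and Hsp90b1 had no order beyond counting error there. Atf4 was lowest in the bin with the least immediate early RNA, 65.3 CPM (43.1 to 95.1), against 117 (86.8 to 154), 148 (114 to 190), and 126 (93.3 to 167) in the others. When cells of library 2 were ordered by 12 cytosolic heat shock genes, whose sum rose from 1753 to 8456 CPM, the members' sum measured 2435 in the lowest and 2569.5 in the highest bin, and Hspa5 measured 604 and 722.5.

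**Figure D4:**
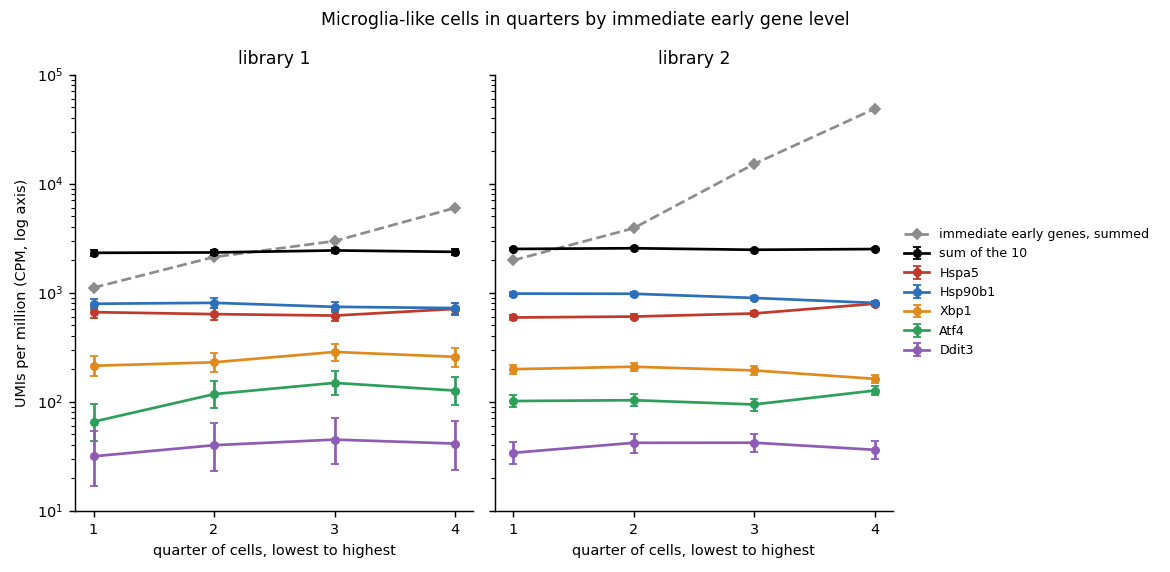
Summed immediate early genes (dashed), the sum of the 10 genes and 5 single genes in CPM (log axis) over 4 equal bins of microglia-like cells ordered by their immediate early gene level, in library 1 and library 2, with 95% counting intervals. In library 2 the immediate early sum rises from 1976 to 48464 CPM while the sum of the 10 genes stays between 2468 and 2549, and Hspa5 and Hsp90b1 approach each other.

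Endothelial-like cells of library 2, cut in the same way into bins of 45, 45, 44 and 44 cells, had Xbp1 at 154 CPM (112 to 206), 199 (161 to 243), 308 (272 to 347) and 353 (319 to 389). Dnajb9 measured 73.3, 81.0, 169.9 and 169 CPM, and Hsp90b1 went the other way, from 485 (408 to 573) to 327 (294 to 361). The median depth over these bins was 4657, 5819, 9011.5 and 13723.5 UMIs. Depth and immediate early level cannot be told apart in this class.

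Cells of 1 class also differed in Hspa5 itself. In microglia-like cells of library 2 its counts were spread 3.76 times as widely as counting error alone would give at each cell's depth, with up to 80 UMIs in a cell, and the tenth of cells with the most held 33.6% of its UMIs. The same measure was 2.10 for Hsp90b1, 1.60 for Dnajb9, 1.56 for Sdf2l1 and from 1.07 to 1.26 for the other 6. In library 1, where cells were shallower, it was 1.61 for Hspa5 and from 0.973 to 1.26 for the others.

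In microglia-like cells the sum of the other 9 members went with Hspa5 from cell to cell. Over 4 equal bins of library 2 microglia-like cells ordered by Hspa5, the other 9 genes summed to 1467 CPM (1418 to 1517), 1666 (1618 to 1714), 1856 (1805 to 1907) and 2348 (2289 to 2408). Sdf2l1 measured 103 CPM (90.2 to 117) in the lowest and 241 (222 to 261) in the highest bin, Hsp90b1 736 (701 to 771) and 1144 (1103 to 1186), and Ddit3 34.6 and 47.0. Median depth was 5838, 6759, 6817 and 6475.5 UMIs. In library 1 the other 9 summed to 1473 CPM (1354 to 1599) in the lowest and 1973 (1839 to 2115) in the highest bin. In endothelial-like cells the lowest and highest bins overlapped, at 1195 (1068 to 1333) and 1311 (1206 to 1423). For single pairs of genes the correlation over cells was weak: the median Pearson r over the 45 pairs was 0.0632 in the 1555 microglia-like cells of library 2. The highest there was 0.30 for Hspa5 with Hsp90b1. The median was 0.0291 in microglia-like cells of library 1 and 0.0157 in endothelial-like cells. Cells of a class share a library and the counts are sparse, so such values are a description.

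Over the 7 combinations of class and library, the log2 level of each of 8357 genes was compared with that of Hspa5. Creld2 had a Pearson r of 0.96, rank 13 of all genes, and Hsp90b1 one of 0.95, rank 16, where ranks count Hspa5 itself. The Creld2 levels rested on 3 UMIs in astrocyte-like, 7 in oligodendrocyte-like and 11 in mural-like cells, so its rank is uncertain. Both Creld2 and Hsp90b1 have the first form of the stress element in the promoter, as Hspa5 has. Herpud1, with the second form, ranked 1489 (r of 0.60). Whether the element has a part in these ranks was not tested. The other members ranked between 301 (Pdia4, r of 0.82) and 2557 (Dnajb9, r of 0.40), with Xbp1 at 1281. The 5 genes most like Hspa5 outside the members were Dnajc7, a cytosolic J-domain protein (0.99), Snx17 (0.98), Map2k1 (0.98), Kpna3 (0.97) and Rab14 (0.97). The 7 points share 2 libraries and hold microglia-like cells 2 times, so the r values have no test.

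**Figure D5:**
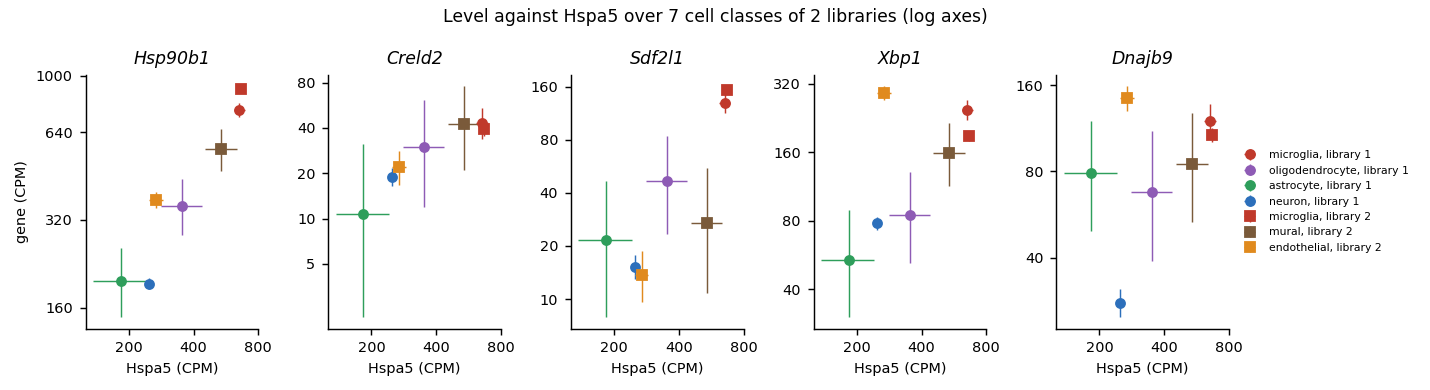
Level of 5 members against that of Hspa5 (CPM, log axes) in the 7 combinations of class and library, circles for library 1 and squares for library 2, with 95% counting intervals. Hsp90b1 and Creld2 are mostly higher where Hspa5 is higher, with wide intervals for Creld2 in the smaller classes. The endothelial-like point, at 268 CPM of Hspa5, is the highest for Xbp1 and Dnajb9 and the lowest for Sdf2l1.

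Some classes had fewer than 50 cells. In library 2, 13 border macrophage-like cells had a summed level of 3050.1 CPM (2666 to 3474), with Hspa5 at 1142 (912 to 1412), and 18 choroid plexus-like cells, which secrete cerebrospinal fluid, had 2689 (2464 to 2929), with Hspa5 at 877 (751 to 1019). The interval of the border macrophage-like sum lay above that of microglia-like cells (2477 to 2538), and that of the choroid plexus-like sum overlapped it. For Hspa5 both intervals lay above that of microglia-like cells (651 to 683). However, a single choroid plexus-like cell held 132 of the 524 UMIs of that class's sum. For Hspa5 the most in a single cell of the class was 44 of 171 UMIs. Among the 13 border macrophage-like cells a single cell held 45 of the 227 UMIs of the sum. For Hspa5 the most in a single border macrophage-like cell was 14 of 85 UMIs. Counting intervals do not cover such spread between cells. They therefore do not settle whether either class exceeds microglia-like cells in the sum or in Hspa5. The 48 oligodendrocyte-like cells of library 2 had 1349 CPM (1249 to 1456) and the 45 neuron-like cells 731 (576 to 915), with no UMI of Sdf2l1. Among microglia-like cells of library 2 by mitochondrial share, the sum as CPM of nuclear-encoded UMIs was 2719 in the 852 cells at up to 5%, 2534 in the 703 cells at 5 to 10%, 2657 in 368 cells at 10 to 20% and 2175 (1991 to 2371) in 152 cells at 20 to 50%, the last 2 groups being outside the cells used elsewhere.

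Between the microglia-like cells of library 2 and those of library 1, none of the 10 members was 2-fold higher, as 2.75% of the 6630 tested genes were, and none 2-fold lower (3.68%). These libraries are single pools of unstated dissociation, so this is a statement on the 2 libraries alone.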

How the data were processed

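Each library's deposited matrix holds raw UMI counts per gene and barcode, made by the authors with Cell Ranger 3.0.1 on GRCm38.p5, per the file headers and the submitters' processing notes. No barcode had under 500 UMIs, and the sources used here do not name the step that set this. No label gives a library's dissociation, so both were left unassigned. The files of library 2 carry another sample number than its title.

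Cells were kept with at least 1000 UMIs, 500 genes and at most 10% mitochondrial UMIs. A class needed 3 of its markers and 70% of all class-marker UMIs, neuron subtypes 2 markers and 80%, and cells with 20% or more haemoglobin UMIs were set aside. Doublets were not removed in the values reported, and Scrublet (scanpy 1.11.5) served as an alternative. Counts were summed per class and divided by the class total, giving CPM with exact Poisson intervals, shares with exact Clopper-Pearson intervals and ratios with exact conditional binomial intervals. The 2-fold rule was tested on simulated counts. Promoters came from RefSeq tables and gene positions from GENCODE vM21. Named were all 10 members, up to 4 genes per pathway list with the highest level in microglia-like cells, and the 5 genes most like Hspa5. Members and lists were chosen with earlier results of these data known. Python 3.11.15, numpy 2.4.6, scipy 1.17.1 and pandas 2.3.3 were used.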

Additional observations from a re-analysis of the deposited data

How the results depend on the processing

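The summed level of the 10 genes in microglia-like cells was 2360.2 CPM in library 1 and 2507 in library 2. With nuclear-encoded UMIs without ribosomal protein genes as the total it was 2572 and 2891, since fewer UMIs enter the total, and with a mitochondrial limit of 5% it was 2623 in library 2. The other alternatives (at least 2000 UMIs, at least 500 UMIs and 250 genes, a mitochondrial limit of 20%, a marker share of 0.9 or 0.5, removal of the highest Scrublet scores, the mean of single-cell CPM) left both sums within their counting intervals. The number of members 2-fold higher than in neuron-like cells was 9 or 10 under these 9 alternatives, and than in endothelial-like cells 3 or 4, although the mitochondrial limit of 5% left 24 endothelial-like cells. Levels of members and their sums per class stayed within the interval of the reported value in 575 of 664 cases. Ratios with at least 50 cells a class changed direction in 1 alternative each for Atf4 against endothelial-like cells (0.791), Creld2 against mural-like cells (1.24), and Ddit3 against astrocyte-like (0.957) and oligodendrocyte-like cells (0.884), all with intervals that span 1 in the values reported. The share of cells with a UMI moved outside it in 57 of 70 cases when cells were not thinned. No paired analysis was possible because there are no groups and 1 library carries each number. Depth limits the astrocyte-like, oligodendrocyte-like and mural-like values most, where single members rest on as few as 3 UMIs (Creld2, astrocyte-like cells).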

Other observations

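The 2 microglia-like populations can be set side by side as values of 2 single libraries. The summed level of the 10 members was 1.06-fold (1.03 to 1.10) that of library 1 in library 2, while 27 immediate early genes summed to 2991 CPM in library 1 and 19934 in library 2, and 12 cytosolic heat shock genes to 2574 and 4443. Pdia4 stood at 1.73-fold (1.42 to 2.11), Hsp90b1 at 1.18-fold (1.11 to 1.25), Sdf2l1 at 1.18-fold (1.03 to 1.37) and Xbp1 at 0.764-fold (0.687 to 0.853). The intervals of the other 6 members spanned 1, among them Hspa5 (1.02, 0.958 to 1.09) and Ddit3 (0.977, 0.750 to 1.29).

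Elsewhere in the pathway, Ppp1r15a, the phosphatase subunit that ends the translation block and an early response gene itself, measured 15.7 CPM (10.3 to 23.0) in library 1 and 91.1 (85.4 to 97.0) in library 2, among microglia-like cells. Atf3, which is both an ATF4 target and an early response gene, measured 38.7 and 611 CPM. In library 2 Atf3 was also present in endothelial-like cells, at 216 CPM, and measured 11.6 in mural-like cells. Of the folding factors outside the members, 14 of 16 passed the filter and 0 reached 2-fold between the libraries, of the degradation factors 12 of 13 passed and 0 did, and of the translocon genes 13 passed and 1, Sec61g, was at least 2-fold higher. Over all tested genes 2.75% were 2-fold higher and 3.68% lower, so counts at or near 0 in lists of this size are near the share of all genes.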
